A study of Homo sapiens with 6 samples.

Results

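The aryl hydrocarbon receptor (AHR) pathway and its cytochrome P450 enzymes were read in 6 libraries of HL-60, a human acute myeloid leukaemia line. The 9 genes are AHR, ARNT, AHRR, TIPARP, CYP1A1, CYP1B1, CYP46A1, POR and EPHX1, taken by gene symbol from the 43424 symbols of the count files. All 9 symbols were found. They were chosen by name with earlier results of these data known. The 3 libraries labelled CIP came from cells kept for 6 months with CIP, named in the labels as Corydalis incisa (Thunb.) Pers., a plant whose preparation was raised slowly from 2 to 20 µg/ml, and the series describes these cells as resistant to it. The 3 libraries labelled DMSO came from cells kept for the same 6 months with the solvent. Both groups are labelled wild type and share the same medium with serum. The labels do not say whether the resistant cells are 1 clone. They do not say either that replicates were cultured separately, and p-values therefore measure only how far these samples spread, and that spread may be technical. The stated aim of the series was to find genes of the differentiation that CIP brings about in leukaemia cells.

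AHR is a transcription factor of the bHLH-PAS family that waits in the cytosol, bound to the chaperone HSP90 and the co-chaperone p23 (PTGES3). Planar aromatic compounds, plant indoles and tryptophan breakdown products bind it, and it then moves to the nucleus, pairs with ARNT and binds short DNA elements beside its target genes. CYP1A1 and CYP1B1 are its classical enzyme targets, while AHRR and TIPARP are targets that damp the receptor in turn. Cytochrome P450 enzymes are haem proteins that oxidise drugs, steroids and lipids, and those of the endoplasmic reticulum take their electrons from POR.

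The libraries were made with QuantSeq, which sequences the 3' ends of polyadenylated transcripts, so a value counts transcript ends and not length. Total counts were between 8143657 and 10868396 per library. Values are CPM, counts scaled to a common library size with the TMM method. A library's 3 counts, the limit that a count of 0 allows, correspond to 0.288 to 0.347 CPM. Before the pathway was read, markers were checked against the line's name. MPO, the myeloperoxidase that HL-60 is known to make in abundance, had 77887 to 84917 counts with CIP and 9 to 15 with DMSO, so the DMSO-labelled libraries go against that background and the groups are named by their labels. "Rose" and "fell" below take the DMSO-labelled libraries as the start. Summed over 10 monocyte and macrophage markers, the level was 21.5 to 29.2 CPM with CIP and 286.7 to 311.7 CPM with DMSO. CD163 was at 0 in both groups and CD14 at 0 with DMSO. The 8 fibroblast markers summed to 55.8 to 138.2 CPM with CIP and 141.9 to 238.6 with DMSO, with none at 0. The 7 neuronal markers summed to 0.463 to 3.63 CPM with CIP, where STMN2 and GFAP were at 0, and to 9.31 to 13.3 with DMSO, where every one but TUBB3 was at 0. The 8 lymphoid markers summed to 4.74 to 5.12 CPM with CIP, where MS4A1 was at 0, and to 87.8 to 109.7 with DMSO, where CD3E, CD3D and MS4A1 were at 0. The 8 promyelocyte markers, MPO among them, summed to 9819 to 10422 CPM with CIP and 1673 to 1802 with DMSO, and none was at 0. MPO carried that sum, and without it the other 7 summed to 1255 to 1571 CPM with CIP and 1672 to 1801 with DMSO, in the reverse direction. Of these 7, PRTN3, MYC and CEBPE were called higher with CIP, while ELANE, AZU1 and CTSG were called lower. The part of these shifts in the results below was not tested. In bulk RNA, fewer cells of a type and less RNA per cell cannot be told apart.

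Of the 9 genes, 7 had enough reads to be tested and 4 of these were called by edgeR's quasi-likelihood test at an adjusted p under 0.05, against 73.1% of all 12844 genes tested. TIPARP and CYP1B1 rose, against 34.9% of all tested genes that did. CYP46A1 and EPHX1 fell, against 38.2%. The receptor AHR, its partner ARNT and the reductase POR did not pass. CYP1A1 was too low to be tested and AHRR had no counts. CYP46A1 passed the filter on low counts only through the DMSO-labelled libraries, and CYP1B1 only through the CIP-labelled ones. The libraries of the groups did not overlap for 5 of the 7 tested genes, against 75.5% of all genes tested. With this many changes in the background, these counts do not set the pathway apart. What sets its members apart from each other is the size and direction of each change.

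**Figure D1:**
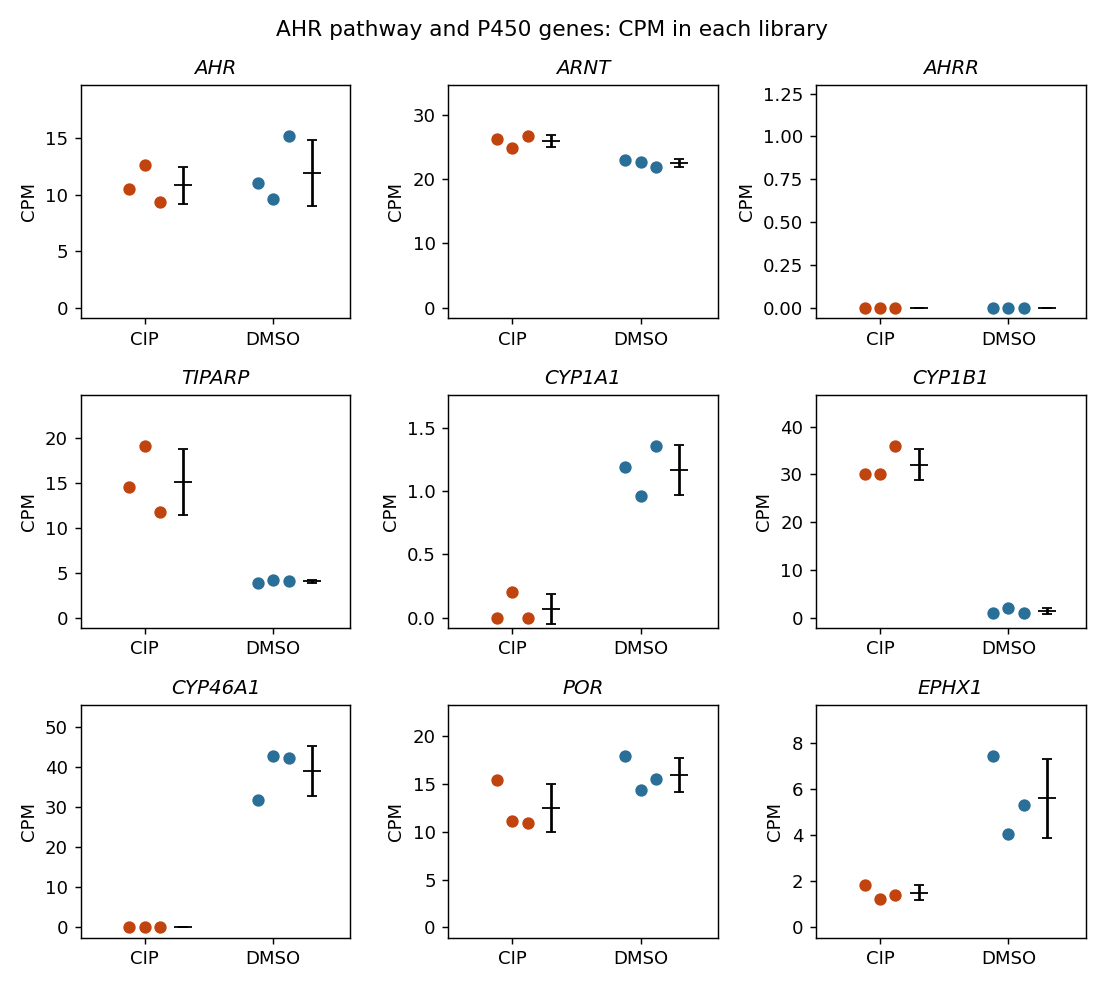
CPM of each of the 9 genes (y axis, each panel with its own scale) in the 3 CIP-labelled and 3 DMSO-labelled libraries (points), with the mean and SD beside them as a dash and bar. CYP1B1 lies at 30.1 to 35.9 CPM with CIP and at 0.891 to 2.01 with DMSO, CYP46A1 lies at 0 with CIP and at 31.7 to 42.7 with DMSO, and the AHR points of the groups overlap.

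AHR (chromosome 7, 17298652 to 17346147, GRCh38, plus strand) was read at a similar level with both labels. It stood at 10.5, 12.6 and 9.38 CPM in CIP replicates 1 to 3 and at 11, 9.59 and 15.2 CPM in DMSO replicates 1 to 3. The groups overlapped, DMSO replicate 3 being the highest library and CIP replicate 3 the lowest. The means were 10.8 ± 1.63 and 11.9 ± 2.89 CPM (SD, n = 3 each), and the log2 fold change of CIP over DMSO was -0.13 ± 0.21 (SE, edgeR adjusted p = 0.58). The approximate 95% interval of that log2 change was -0.54 to 0.28, so a small change in either direction is not excluded by these data. Without DMSO replicate 3 the log2 fold change was 0.06.

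ARNT (chromosome 1, 150809713 to 150876599, minus strand), the partner that AHR needs to bind DNA and that the hypoxia factors share, was also close between the groups. It stood at 26.2, 24.8 and 26.6 CPM with CIP and at 23.0, 22.6 and 21.8 CPM with DMSO. All CIP-labelled libraries lay above all DMSO-labelled ones, by a small margin. The log2 fold change was 0.20 ± 0.13 (SE, edgeR adjusted p = 0.17), with an approximate 95% interval of -0.06 to 0.47. With unscaled library totals it was -0.03. That scaling moved the median log2 change of all genes from -0.03 to -0.26, and relative to the median ARNT stood at 0.24 under both scalings.

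The classical targets went in different directions. TIPARP (chromosome 3, 156674590 to 156706770, plus strand) encodes a mono-ADP-ribosyltransferase, also known as PARP7, that modifies AHR and limits its activity. It had 125, 186 and 116 counts with CIP against 39, 43 and 36 with DMSO. In CPM these were 14.5, 19.0 and 11.7 against 3.86, 4.12 and 4.07. Every CIP-labelled library lay above the highest DMSO-labelled one, and the spread was wider with CIP. TIPARP rose 3.74-fold, a log2 change of 1.90 ± 0.24 (SE, edgeR adjusted p = 1.1e-08), and 20.8% of all tested genes had a larger change in either direction. Its head-to-head antisense transcript TIPARP-AS1 overlaps the start of the gene and not its 3' end, and stood at 1.15 ± 0.416 against 1.41 ± 0.706 CPM (edgeR adjusted p = 0.66).

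CYP1A1 (chromosome 15, 74719542 to 74725528, minus strand), the enzyme most often used as the readout of AHR activity, was barely read. It had 0, 2 and 0 counts with CIP against 12, 10 and 12 with DMSO. The groups did not overlap, and the few reads lay with the DMSO label, the reverse of TIPARP and CYP1B1. Summed over each group these were 2 against 34 counts, a level 16.4 times higher with DMSO (exact 95% interval 4.20 to 140.9, counting error only). The low-count filter of the main test left CYP1A1 out. With no such filter edgeR gave a log2 change of -3.81 ± 1.14 (SE, adjusted p = 0.0024), and over the 9 alternatives that could test it the adjusted p was 3.7e-04 to 0.0073. Its neighbour CYP1A2, which lies 23317 bases away on the opposite strand and is another AHR target, had 3 counts in DMSO replicate 2 and none in the other 5 libraries.

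AHRR (chromosome 5, 321714 to 438285, plus strand), the repressor that competes with AHR for ARNT, had 0 counts in every library, which allows up to 0.106 CPM over the CIP-labelled group and 0.102 CPM over the DMSO-labelled one. In RefSeq the whole gene lies inside PDCD6-AHRR, a read-through transcript on the same strand, which also had 0 counts in every library. How the counting assigned reads that fall on both genes was not given in the sources used here. The value of AHRR is therefore uncertain and is not shown to be absence of the transcript. PDCD6, upstream on the same strand, had 863 to 1364 counts per library.

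The start regions of these 3 targets are shown because they were read so differently while all being known AHR targets. Each is the stretch from 250 bases before to 50 bases after the start site (RefSeq, GRCh38.p14), written 5′ to 3′ on the strand of the gene, with capitals marking the 5-letter core of the AHR-ARNT element, GCGTG, on either strand (CACGC where it lies on the opposite strand).
TIPARP, chr3:156674340-156674639, plus strand: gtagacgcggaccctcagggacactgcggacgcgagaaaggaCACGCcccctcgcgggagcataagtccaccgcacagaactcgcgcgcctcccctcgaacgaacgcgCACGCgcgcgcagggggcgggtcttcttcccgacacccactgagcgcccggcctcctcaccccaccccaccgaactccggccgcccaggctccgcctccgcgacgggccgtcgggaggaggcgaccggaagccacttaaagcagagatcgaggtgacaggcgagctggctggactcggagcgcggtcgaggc
CYP1A1, chr15:74725479-74725778, minus strand: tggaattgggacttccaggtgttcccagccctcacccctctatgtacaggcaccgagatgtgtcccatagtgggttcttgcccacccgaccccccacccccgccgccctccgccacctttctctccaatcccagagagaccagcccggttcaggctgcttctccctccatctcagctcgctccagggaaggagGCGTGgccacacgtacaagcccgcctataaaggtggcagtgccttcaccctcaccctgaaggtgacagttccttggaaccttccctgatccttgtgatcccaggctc
AHRR, chr5:321464-321763, plus strand: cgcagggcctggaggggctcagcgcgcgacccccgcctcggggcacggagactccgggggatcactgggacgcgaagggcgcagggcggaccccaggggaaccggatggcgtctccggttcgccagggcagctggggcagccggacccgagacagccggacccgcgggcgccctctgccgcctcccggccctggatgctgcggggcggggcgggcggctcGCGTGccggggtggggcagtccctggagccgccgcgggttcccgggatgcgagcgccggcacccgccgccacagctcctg

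The core was found 2 times in the TIPARP window, from bases 43 and 109 of it, and 1 time each in the CYP1A1 window, from base 194, and the AHRR window, from base 221. Of the other 3 genes with an entry, AHR held 1 match and ARNT and EPHX1 none. CYP1B1, CYP46A1 and POR have no entry in the promoter table. Elements farther from the start site lie outside these windows and were not searched, and binding at the matches was not tested. Matches are common: 36.5% of the 35116 promoters of the same length hold GCGTG on either strand, and 48.7% of those of genes tested here. The longer form TNGCGTG, which contains the core, occurred in the AHRR window alone among the 6, and in 5.51% of all promoters. GCGTG is also a form of the core that hypoxia factors bind with ARNT, so the letters do not tell these elements apart. The windows differ in base composition, with 71% G and C in TIPARP, 61% in CYP1A1 and 79.3% in AHRR.

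CYP1B1 (chromosome 2, 38067509 to 38076151, minus strand), which oxidises oestrogens and polycyclic hydrocarbons and is a target of AHR outside the liver, was the member that rose most. It had 261, 294 and 356 counts with CIP against 9, 21 and 9 with DMSO, or 30.2, 30.1 and 35.9 CPM against 0.891, 2.01 and 1.02. The groups lay far apart, and among the DMSO-labelled libraries replicate 2 was the highest. The means were 32.1 ± 3.33 and 1.31 ± 0.615 CPM (SD, n = 3 each). CYP1B1 rose 24.0-fold, a log2 change of 4.58 ± 0.24 (SE, edgeR adjusted p = 2.1e-18), and 9.37% of all tested genes had a larger change in either direction. RMDN2, on the opposite strand, ends 371 bases from the 3' end of CYP1B1 in RefSeq and overlaps it by 170 bases in GENCODE release 29. It had 9, 3 and 3 counts with CIP and 0 in each DMSO-labelled library. The antisense transcript CYP1B1-AS1, which overlaps CYP1B1 in GENCODE but not in RefSeq, had 7, 6 and 35 counts with CIP and 9, 8 and 3 with DMSO.

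CYP46A1 (chromosome 14, 99684298 to 99727301, plus strand), the cholesterol 24-hydroxylase best known from neurons, where it starts the removal of brain cholesterol, went the other way. It had 0 counts in each of the 3 libraries with CIP against 320, 445 and 373 with DMSO, or 31.7, 42.7 and 42.2 CPM. Its level was at least 366-fold lower with CIP, taking 3 counts over the CIP-labelled group as the limit (edgeR adjusted p = 4.8e-21). The product of CYP46A1, 24-hydroxycholesterol, is a ligand of the LXR receptors. The receptor genes NR1H2 and NR1H3 did not pass, with log2 fold changes of 0.34 ± 0.18 and -0.01 ± 0.42 (SE, edgeR adjusted p = 0.079 and 0.99). Of 8 tested genes of oxysterol formation and cholesterol export, 2 rose, 2 fell and 4 did not pass, with a median log2 change of 0.17, against -0.03 for all genes tested. The share called was 50%, against 73.1% of all genes tested (34.9% higher and 38.2% lower). ABCA1, a cholesterol exporter and LXR target, rose from 1.27 ± 0.42 to 10.2 ± 1.73 CPM, and SOAT1, which esterifies cholesterol for storage, fell from 27.2 ± 2.8 to 8.22 ± 1.29 CPM. MYLIP, another LXR target, fell from 44.1 ± 2.93 to 35.5 ± 3.97 CPM, with an edgeR adjusted p of 0.013 that was 0.089 without CIP replicate 2 (5.6e-05 to 0.089 over all alternatives).

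The position of CYP46A1 showed a pattern that was looked for after its values were seen. CCDC85C and HHIPL1 before it and EML1 after it also had 0 counts in every CIP-labelled library. With the DMSO label CCDC85C had 92, 85 and 60 counts, HHIPL1 15, 8 and 12, and EML1 8, 14 and 11. The 3' end of CCDC85C lies inside CCNK on the opposite strand. The 4 genes are neighbours in the order of protein-coding genes and span 442 kb (chromosome 14, 99500190 to 99942060). The genes on either side were read with both labels: CCNK, a cyclin, stood at 52.1 ± 3.74 CPM with CIP and 34 ± 2.0 with DMSO, and EVL, an actin regulator, at 72.8 ± 2.82 and 42.0 ± 2.16 CPM. Over all chromosomes this was the only run of 4 or more neighbouring protein-coding genes with 0 counts in the CIP-labelled libraries and at least 10 counts each over the DMSO-labelled ones. There were 4 such runs of 3 or more genes, this one among them, and none the other way round. The others held BMI1 with SPAG6 and LOC124902392, ART3 with CXCL10 and CXCL11, and HLA-DRA with HLA-DRB5 and HLA-DRB1. Genes with a count numbered 15609 to 16325 in the CIP-labelled libraries and 17182 to 17524 in the DMSO-labelled ones. The 2 directions are therefore not counted on equal terms. HHIPL1 and EML1 were low in the DMSO-labelled libraries (1.20 ± 0.383 and 1.13 ± 0.293 CPM), so for them the reads limit the fold that can be shown.

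**Figure D2:**
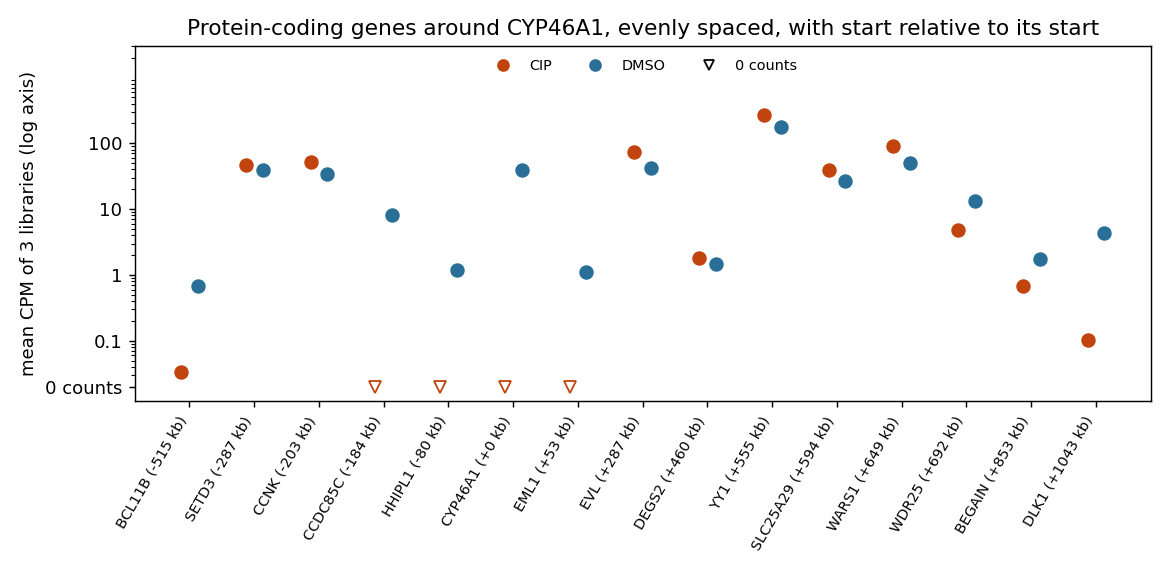
Mean CPM of the protein-coding genes with reads within 1 Mb of either end of CYP46A1 (y axis, log scale, with 0 counts drawn as open triangles at the bottom) for the CIP-labelled and DMSO-labelled libraries, n = 3 each. Genes are evenly spaced along the x axis in chromosome order, with the distance of each start from that of CYP46A1 in kb. The 4 neighbours CCDC85C, HHIPL1, CYP46A1 and EML1 have 0 counts with CIP, while CCNK and EVL beside them were read with both labels.

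The family as a whole was sparsely read. The files list 56 cytochrome P450 genes, of which 24 had no count in any library and 9 passed the filter on low counts. All 9 of these were called, 3 higher and 6 lower, where 73.1% of all tested genes were called, 34.9% higher and 38.2% lower. Their median log2 fold change was -1.08, also with CYP46A1 at its bound. CYP1B1 and CYP46A1, chosen with earlier results known, are among these 9. The filter drops genes that are low in both groups. CYP46A1, CYP2S1, CYP4V2 and CYP2E1 met its limit in all libraries of the DMSO label alone, and CYP1B1 in all of the CIP label alone. The share called therefore does not set the family apart from other genes. CYP51A1, the sterol demethylase of cholesterol synthesis, rose from 84.2 ± 7.71 to 145.3 ± 6.96 CPM, and CYP20A1, an orphan P450, from 25.5 ± 2.76 to 51.8 ± 6.6 CPM. CYP51A1 has processed pseudogenes that can share its reads. These are the tested P450 genes that rose besides CYP1B1. CYP2U1 was too low to be tested, with 10, 14 and 8 counts with CIP and 0, 0 and 2 with DMSO. Its level was 16.6 times higher with CIP (exact 95% interval 4.23 to 142.8, counting error only).

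The tested P450 genes that fell besides CYP46A1 act on vitamins, fatty acids and xenobiotics. CYP2R1 and CYP27B1, the vitamin D 25-hydroxylase and 1-alpha-hydroxylase, fell from 19.3 ± 1.02 to 9.15 ± 0.533 CPM and from 6.37 ± 1.59 to 1.92 ± 0.461 CPM. CYP4V2, a fatty acid hydroxylase, fell from 6.93 ± 0.775 to 0.600 ± 0.108 CPM. CYP2S1, known as another AHR-inducible P450, had 1 count with CIP against 151 with DMSO, 146 times lower (exact 95% interval 25.7 to 5791). The groups did not overlap for these 4 genes. CYP2E1, the ethanol-inducible P450, had 39, 10 and 17 counts with CIP and 51, 36 and 53 with DMSO, so its groups overlapped. Its edgeR adjusted p of 0.027 was 0.076 with DESeq2 and did not pass without CIP replicate 2 (0.15), CIP replicate 3 (0.073), DMSO replicate 1 (0.070) or DMSO replicate 3 (0.12), within a range of 7.0e-04 to 0.15 over all alternatives.

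**Figure D3:**
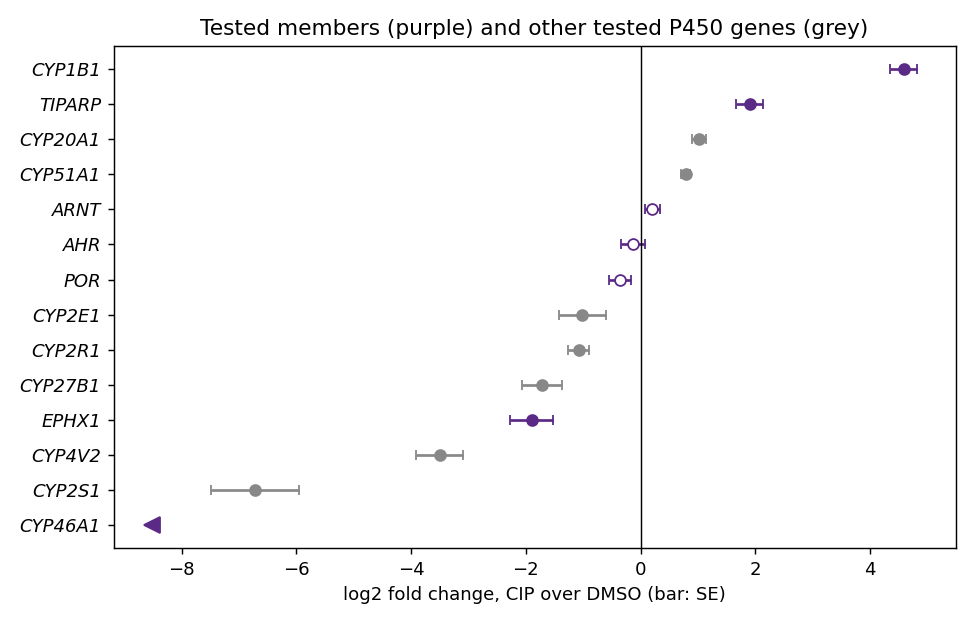
Log2 fold change of CIP over DMSO (x axis, bars are the SE) for the 7 tested members in purple and the other 7 tested cytochrome P450 genes in grey, with filled points for calls at an edgeR adjusted p under 0.05 and open points for the rest. The triangle for CYP46A1 marks a bound against 3 counts. CYP1B1 stands at 4.58 and TIPARP at 1.90, while AHR, ARNT and POR lie near 0.

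POR (chromosome 7, 75915155 to 75986855, plus strand), the reductase that passes electrons from NADPH to the P450 enzymes of the endoplasmic reticulum, was slightly lower with CIP and did not pass. It stood at 15.4, 11.2 and 10.9 CPM with CIP and at 17.9, 14.4 and 15.5 CPM with DMSO. The groups overlapped through CIP replicate 1. The log2 fold change was -0.36 ± 0.19 (SE, edgeR adjusted p = 0.083), with an approximate 95% interval of -0.72 to 0.01. It passed without CIP replicate 1 (-0.52, adjusted p = 0.027) and with unscaled library totals (-0.59, adjusted p = 0.0054), and over all alternatives the adjusted p was 0.0054 to 0.26. The 3' end of POR meets that of TMEM120A on the opposite strand with an overlap of 25 bases, and TMEM120A fell (log2 fold change -1.03 ± 0.13, SE, edgeR adjusted p = 1.7e-08). No strand setting of the counting was given in the sources used here, and reads at that overlap cannot be told apart.

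The next list joined other carriers of electrons to P450 enzymes with the haem-binding proteins PGRMC1, PGRMC2 and NENF. Of its 9 tested genes 5 rose, 2 fell and 2 did not pass, with a median log2 change of 0.31. The 2 that fell were PGRMC1 and NENF. The share called was 77.8%, near the 73.1% of all genes tested. CYB5A, cytochrome b5, which supports several P450 reactions, had 239, 369 and 420 counts with CIP and 0 in every DMSO-labelled library, at least 355-fold higher against 3 counts over the group. CYB5R1, a member of the cytochrome b5 reductase family, rose from 3.62 ± 0.79 to 10.8 ± 1.18 CPM, and NENF, a small haem-binding protein, fell from 111.2 ± 7.06 to 61.8 ± 5.62 CPM. CYB5B, the form on mitochondria, rose from 41.6 ± 1.6 to 54.2 ± 7.74 CPM with TMM scaling. With library totals alone it did not pass (adjusted p = 0.20, with 6.5e-05 to 0.20 over all alternatives), and 4 of the 9 genes were then called in place of 7.

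EPHX1 (chromosome 1, 225810124 to 225845563, plus strand), the microsomal epoxide hydrolase that opens the epoxides which P450 enzymes form, fell. It had 16, 12 and 14 counts with CIP against 75, 42 and 47 with DMSO, or 1.85, 1.23 and 1.41 CPM against 7.43, 4.03 and 5.32. All CIP-labelled libraries lay below all DMSO-labelled ones. EPHX1 fell 3.73-fold, a log2 change of -1.90 ± 0.38 (SE, edgeR adjusted p = 3.9e-05). Its 3' end lies inside TMEM63A on the opposite strand, which fell as well, from 24.4 ± 2.16 to 12.1 ± 1.38 CPM, so the reads at that end are uncertain without a known strand setting. Among the other epoxide hydrolases only LTA4H was tested, the enzyme that makes leukotriene B4, and it fell from 60 ± 3.89 to 37.2 ± 1.75 CPM. EPHX2, EPHX3 and EPHX4 were too low.

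Genes that hold, help or damp the receptor were called in both directions, as were genes at large. Of 14 tested genes of the cytosolic complex and the nuclear partners 7 rose, 5 fell and 2 did not pass, with a median log2 change of 0.26. The share called was 85.7%, against 73.1% of all genes tested (34.9% higher and 38.2% lower). Within the complex, the chaperone HSP90AA1 rose from 1308 ± 68.5 to 2051 ± 87.5 CPM while its paralog HSP90AB1 fell from 3663 ± 113.7 to 2344 ± 199.2 CPM. PTGES3 rose from 256.4 ± 5.17 to 540.6 ± 17.7 CPM. HSP90 genes have close pseudogenes, so their reads are uncertain. Among nuclear partners NRIP1, a corepressor of nuclear receptors, had 673 counts with CIP against 1 with DMSO, 698 times higher (exact 95% interval 125 to 27597). KLF6, a zinc finger partner of AHR, fell from 42.7 ± 3.81 to 16.2 ± 2.32 CPM, and the coactivator NCOA2 fell from 17.3 ± 1.87 to 8.89 ± 0.372 CPM.

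Of 16 tested genes among the other known targets of AHR 5 rose, 8 fell and 3 did not pass, with a median log2 change of -0.72. This was 81.2% called, against the same 73.1%, 34.9% higher and 38.2% lower, of all genes tested. CD36, a fatty acid and lipoprotein receptor, had 1 count with CIP against 212 with DMSO, 205 times lower (exact 95% interval 36.3 to 8115). SERPINB2, an inhibitor of plasminogen activators, fell from 20.8 ± 1.54 to 1.22 ± 0.707 CPM and LRG1, a secreted leucine-rich glycoprotein, from 49.2 ± 1.47 to 4.13 ± 1.4 CPM. The cytokine gene IL1B rose from 1.99 ± 0.363 to 15.2 ± 1.28 CPM. NQO1, a quinone reductase with AHR and NRF2 elements, fell from 34.9 ± 7.94 to 5.00 ± 0.785 CPM. Several of these genes are controlled by many other factors. Some are also expressed by monocytes, whose summed markers were lower with CIP as given above. The part of that shift in changes of either direction was not tested. Of 6 tested bHLH-PAS factors other than AHR and ARNT 2 rose and 3 fell, with a median log2 change of -0.80, or 83.3% called against 73.1%. EPAS1 (HIF-2 alpha) fell from 6.27 ± 1.08 to 0.353 ± 0.0484 CPM and BMAL1, a clock factor, from 6.46 ± 0.534 to 1.87 ± 0.667 CPM, while CLOCK rose from 22.6 ± 2.65 to 32.5 ± 0.584 CPM. BMAL2 rose with an edgeR adjusted p of 0.022, lost with library totals alone (0.091), DESeq2 (0.065), without CIP replicate 1 (0.084) or 2 (0.073) and without DMSO replicate 1 (0.12), within 0.0042 to 0.12 over all alternatives. Without CIP replicate 1, 3 of these bHLH-PAS genes were called in place of 5.

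Enzymes of tryptophan breakdown, which can form AHR ligands, were called in 5 of 6 tested cases, 3 higher and 2 lower, with a median log2 change of -0.02. The 83.3% called compares with 73.1% of all tested genes. The dioxygenase IDO1 had 4 counts in DMSO replicate 2 and none in the other 5 libraries. IL4I1, also too low to be tested, had 0 counts in every CIP-labelled library and 9, 21 and 15 with DMSO. KYNU fell from 3.14 ± 0.585 to 0.137 ± 0.236 CPM. AFMID, which makes kynurenine, rose from 20.5 ± 3.04 to 81.8 ± 8.36 CPM, and HAAO, further down the pathway, fell from 9.69 ± 3.49 to 0.652 ± 0.34 CPM. KYAT3, a kynurenine aminotransferase, rose from 26.4 ± 3.69 to 39.3 ± 1.72 CPM. GOT2, an aspartate aminotransferase, rose from 84.2 ± 5.06 to 108.8 ± 7.34 CPM and did not pass with library totals alone (adjusted p = 0.12, with 1.0e-05 to 0.12 over all alternatives).

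Genes that supply haem or conjugate the products of P450 enzymes made up the rest. Of 13 tested haem genes 4 rose and 6 fell, with a median log2 change of -0.31, and the 76.9% called lay near the 73.1% of all tested genes. The synthesis enzyme UROS rose from 18.9 ± 1.28 to 42.6 ± 2.97 CPM, and the biliverdin reductases BLVRA and BLVRB fell from 17.0 ± 0.841 to 3.51 ± 0.617 CPM and from 103.6 ± 1.27 to 8.53 ± 3.75 CPM. Of 14 tested conjugating enzymes 6 rose and 7 fell, with a median log2 change of -0.32. The share called was 92.9%, against 73.1% of all tested genes (34.9% higher and 38.2% lower). The sulfotransferase SULT1A1 fell from 120 ± 5.86 to 0.634 ± 0.264 CPM, with the limit that it has close paralogs. The glutathione transferase GSTA4 fell from 12.7 ± 1.41 to 0.324 ± 0.131 CPM and MGST3 from 431.5 ± 29.2 to 95.3 ± 6.01 CPM, while GSTM4, also with close paralogs, rose from 0.232 ± 0.138 to 8.68 ± 0.755 CPM.

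Of 15 tested members of the PARP family, to which TIPARP belongs, 3 rose, 6 fell and 6 did not pass, with a median log2 change of -0.001. The share called was 60%, against 73.1% of all tested genes. PARP8 rose from 4.24 ± 0.943 to 30.4 ± 4.18 CPM. PARP3 fell from 28.3 ± 1.11 to 1.13 ± 0.602 CPM, PARP14 from 29.6 ± 2.16 to 11.2 ± 2.76 CPM and PARP16 from 28.7 ± 5.63 to 9.62 ± 0.971 CPM. Of 8 tested nuclear receptors that regulate P450 genes 3 rose and 3 fell, with a median log2 change of -0.09, and 75% were called, near the same share. NR2F2, an orphan receptor, rose from 17.8 ± 1.71 to 127.5 ± 11.8 CPM, RARA, a retinoic acid receptor, from 9.61 ± 1.36 to 20.5 ± 3.17 CPM and RXRA, the shared partner of many receptors, from 49.5 ± 7.11 to 85.4 ± 14.1 CPM. PPARA, a fatty acid receptor, fell from 13.1 ± 2.86 to 6.62 ± 1.44 CPM.

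**Figure D4:**
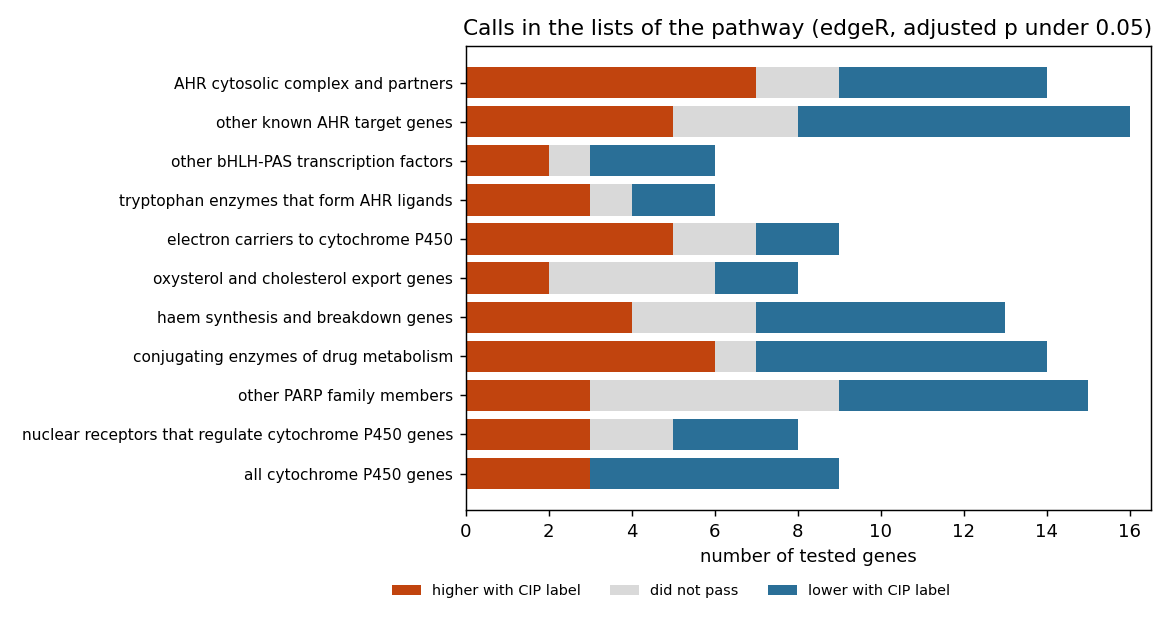
Number of tested genes (x axis) that were higher with the CIP label, did not pass, or were lower with it, for each list of the pathway with 5 or more tested genes, by edgeR at an adjusted p under 0.05. Each list holds calls in both directions, and the cytochrome P450 genes are split 3 higher and 6 lower.

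The profiles closest to those of the called members at 10 CPM or more were taken from all tested genes, by the root mean square difference of the gene-centred log2 CPM over the 6 libraries. For TIPARP these were ALYREF, ATP13A3 and SGCB, at a difference of 0.12, 0.13 and 0.13. ATP13A3 is a polyamine transporter and ALYREF an mRNA export factor. For CYP1B1 they were CHFR, LOC102725082 and ZSCAN12, at 0.14, 0.18 and 0.19. CHFR, a mitotic checkpoint ligase, went from 0.641 ± 0.195 to 18.4 ± 2.6 CPM. For CYP46A1 they were HAR1A, UNCX and HLA-DRB1, at 0.16, 0.19 and 0.19, each with 0 counts in the CIP-labelled libraries. HLA-DRB1 shares reads with other HLA genes and depends on the allele, so its value is uncertain. With 6 libraries in 2 groups, any gene with a similar size of change between the labels on this scale comes close by this measure. The log2 CPM carried a prior count of 2, which shrinks changes where counts are low. SGCB, LOC102725082 and ZSCAN12 had 0 to 3 counts in each DMSO-labelled library, so their fold changes can differ from that of the member.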

How the data were processed

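The deposited files hold the authors' raw counts for each gene symbol, with 1 library in each, and no normalisation shows in the values. STAR, HTSeq, fastp, bcl2fastq 2.20.0.422 and the build GRCh38 are named in the submitters' processing notes, without role or setting. Molecular identifiers are not mentioned, and intervals and floors therefore describe counting error alone.

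All 6 libraries entered edgeR 4.0.16 (R 4.3.3) with filterByExpr, TMM scaling (factors 0.914 to 1.09) and a robust quasi-likelihood test of the labels, 2-sided, with Benjamini-Hochberg adjustment over 12844 genes. CPM are counts over the TMM-scaled totals of tested genes. The SE is the log2 fold change over the square root of F. The same steps were run on simulated data in which few genes changed, equally in both directions, with the same dispersion for every gene. That run cannot show how the scaling and the test perform where most genes change, as here. An exact permutation test of 3 against 3 libraries cannot go below p = 0.10. Chi-square per gene between libraries of a group was 3.82 to 7.66, more than counting error alone would give. It cannot tell whether libraries of a group came from the same culture or RNA.

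The 9 members and all lists were chosen with earlier results of these data known. Named genes are the members, in each list up to 4 called genes that changed most among those reaching 5 CPM, all tested P450 genes, neighbouring and overlapping genes, and the 3 closest profiles, with some genes of the lists not reported here. HSP90AA1, HSP90AB1, NQO1, NR1H2, NR1H3, IDO1, IL4I1, KYNU and CYP2U1 were named after their values were seen, as were the genes around CYP46A1 other than its direct neighbours. Positions come from RefSeq (GRCh38.p14), and GENCODE release 29 is named where used. Alternatives were RLE scaling, library totals, no filter, 1 CPM in 3 libraries, DESeq2 1.42.0, limma-voom (limma 3.58.1), no robust fitting, the replicate block and each library left out. The sum of promyelocyte markers without MPO was added after seeing the data.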

Additional observations from a re-analysis of the deposited data

How the results depend on the processing

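Of the 20 results followed through 14 alternatives each (the count over all genes, 7 members and 12 lists), 15 held throughout. For a member this meant the same direction and side of the threshold. For a count it meant only that a similar number of genes was called. The members that held were TIPARP (log2 fold change 1.67 to 2.07), CYP1B1 (4.35 to 5.05), CYP46A1 and EPHX1 (-2.13 to -1.64). With library totals alone the log2 fold change of ARNT turned to -0.0276, POR passed at -0.59, and 4 genes of the electron carrier list were called. Under that scaling 63.2% of all called genes were lower, in place of 52.3%. With 1 library left out AHR ranged from -0.28 to 0.0625 (without DMSO replicate 3) and POR from -0.52 to -0.26, and 3 to 6 bHLH-PAS genes were called. The cause was not tested. The replicate numbers do not pair the libraries (correlations of same-numbered libraries -0.03 to -0.01). With the replicate number as a block 9061 genes were called in place of 9394, and no call among the 7 members changed. Of 56 other named genes 51 kept their call under every alternative that tested them. CYP1A1 and CYP1A2 had 0 to 12 counts a library, so only large changes in them could be shown at this depth.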
